A study of Mus musculus with 6 samples.

Results

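The fibroblast growth factor (FGF) receptors and the proteins that work directly with them were followed in MA-10 cells, a line from a mouse Leydig cell tumour. Leydig cells make androgens in the testis. The set held 9 of the 22084 genes measured. Fgfr1, Fgfr2, Fgfr3 and Fgfr4 encode the receptor tyrosine kinases, and Fgfrl1 encodes a related receptor without the kinase domain. Klb and Kl encode the coreceptors beta-Klotho and Klotho, and Frs2 and Frs3 encode the adaptors that pass the receptor signal on. The genes were found by their symbols, and each of the 9 had 1 probe set. They were chosen by the siRNA MEF2 minus siRNA Ctrl difference of Fgfr4, one of the larger increases on these arrays, with its relatives and direct partners beside it. Their differences between the groups are therefore a description and carry no p-value.

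The study asked which genes depend on MEF2, a family of transcription factors, in Leydig cells. In the siRNA MEF2 group, 3 samples had received small interfering RNA directed at MEF2. In the siRNA Ctrl group, 3 samples had received control siRNA. RNA was taken after 48 h in both groups, and each sample was read on 1 array. All samples came from 1 cell line grown in medium with horse serum, and the treatment lowered MEF2 transcripts without removing them. The labels do not say whether samples came from separate cultures, so the p-values rest on a spread between samples that could be technical alone.

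FGFs bind their receptors together with heparan sulfate, a sulfated sugar chain of the cell surface, and the paired receptors then phosphorylate each other. FRS2 binds the receptor and, once the receptor is active, recruits GRB2 and the phosphatase SHP2, which open the RAS and MAP kinase pathway. The endocrine factors FGF15, FGF21 and FGF23 bind heparan sulfate weakly and need a Klotho protein as coreceptor. In the mouse liver, FGFR4 with beta-Klotho is the receptor through which intestinal FGF15 lowers bile acid synthesis. In the mouse fetal gonad, FGF9 acting through FGFR2 is needed for testis formation.

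Array medians over all genes lay between 7.82 and 7.89 on the log2 scale. The deposited values had been brought to a common scale, so these near-equal medians do not show that the arrays were alike. Probe sets serving as negative controls had medians of 7.16, 7.40 and 7.53 in siRNA MEF2, against 7.28, 7.35 and 7.34 in siRNA Ctrl. Mef2a fell to 9.80, 10.12 and 10.10 in siRNA MEF2, against 10.80, 10.80 and 10.78 in siRNA Ctrl (difference -0.78, limma adjusted p = 8.44e-05). Mef2d fell to 10.60, 10.84 and 10.92, against 11.22, 11.31 and 11.22 (difference -0.46, limma adjusted p = 0.00205). Of the 6 Leydig markers measured, Cyp11a1, Cyp17a1, Lhcgr and Nr5a1 had at most 1.53% of the 5222 negative control probe sets above their mean, while Star had 13.4% and Hsd3b1 44.3%. The mean of these 6 markers was 10.61 to 10.65 on the siRNA MEF2 arrays and 10.58 to 10.75 on the siRNA Ctrl arrays, with 3 called higher and 2, Star and Hsd3b1, lower. Of 20 markers of Sertoli, endothelial, macrophage, germ and peritubular myoid cells, 5 had a mean log2 signal of at least 8, among them Sox9 and Cdh5, and 15 did not. Cdh5 had 0.785% of the negative controls above its mean and Sox9 7.12%, while Cd68, Ddx4 and Dhh had 24.7%, 30.5% and 31%. In siRNA MEF2, Cdh5 and Cd68 were called lower and Wt1, Tek, Ptprc, Ddx4 and Tex14 higher, and the part of these markers in the results was not tested. Differences depended on brightness: the median over all genes was 0.04, but it was 0.11 in the fourth of 10 signal bands counted from the dimmest and -0.08 in the eighth. The share of genes called lower ran from 0.272% in the dimmest band to 26.1% in the eighth. Limma called 4577 genes (20.7%) at an adjusted p under 0.05, 9.04% of all genes higher and 11.7% lower. The count was 2482 without siRNA MEF2 replicate 2, 2521 without siRNA Ctrl replicate 2 and 2654 without siRNA Ctrl replicate 3.

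Among the receptors, Fgfr4 differed most between the groups. Its log2 signal was 9.39, 9.24 and 9.45 in siRNA MEF2, against 8.61, 8.71 and 8.58 in siRNA Ctrl. The groups did not overlap, and the lowest siRNA MEF2 array lay 0.53 above the highest control array. The means were 9.36 ± 0.11 in siRNA MEF2 and 8.64 ± 0.07 in siRNA Ctrl (SD, n = 3 each). The difference was 0.72 on the log2 scale (SE 0.07), or 1.65-fold, the seventh largest rise among all 22084 genes. Genes of the same signal band had a median difference of -0.06. Among the negative controls 15.7% were brighter than the mean of Fgfr4. In these bulk samples, more cells with the transcript and more transcript per cell cannot be told apart. Rescaling the arrays gave 0.67 after median centring, 0.79 after quantile normalization and 0.76 after cyclic loess. Within siRNA MEF2, Mef2a and Mef2d were lowest on replicate 1, and Fgfr4 was highest on replicate 3 and lowest on replicate 2. With 3 arrays, whether Fgfr4 followed the MEF2 transcripts was not tested.

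Fgfr2, whose product binds FGFs of the FGF7 and FGF10 or the FGF9 kind depending on its splice form, was also higher. It had 9.49, 9.63 and 9.57 in siRNA MEF2, against 9.26, 9.39 and 9.11 in siRNA Ctrl. The siRNA MEF2 arrays all lay above the control arrays, by 0.10 at the nearest point. The control arrays spread more widely than the siRNA MEF2 arrays, with an SD of 0.14 against 0.07 in siRNA MEF2. The difference was 0.31 (SE 0.07), or 1.24-fold, which is 0.41 below that of Fgfr4. It was 0.24 without siRNA Ctrl replicate 3 and 0.39 after quantile normalization. Among the negative controls 10.8% were brighter than the mean of Fgfr2.

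Fgfr1 and Fgfr3 were dim. Fgfr1 had 7.61, 7.68 and 7.74 in siRNA MEF2, against 7.55, 7.53 and 7.61 in siRNA Ctrl. The groups touched, with a gap of 0.001, and 43.4% of the negative controls were brighter than the mean of Fgfr1. The difference of 0.11 (SE 0.06) was close to the median of 0.10 for genes of the same band, and it was 0.03 after quantile normalization and 0.04 after cyclic loess. Fgfr3 had 7.90, 7.89 and 7.86 in siRNA MEF2, against 7.87, 7.86 and 7.93 in siRNA Ctrl, so the groups overlapped. Its difference was -0.005 (SE 0.05), which turned to 0.015 without siRNA Ctrl replicate 3 and 0.006 without siRNA MEF2 replicate 3. Among the negative controls 37.2% were brighter than Fgfr3.

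Fgfrl1, the receptor-like gene, had 4.16% of the negative controls above its mean. It had 10.30, 10.37 and 10.36 in siRNA MEF2, against 10.18, 10.35 and 10.23 in siRNA Ctrl. Control replicate 2 lay within the range of the siRNA MEF2 arrays. The difference was 0.09 (SE 0.06), with 0.04 after median centring and 0.18 after quantile normalization.

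**Figure D1:**
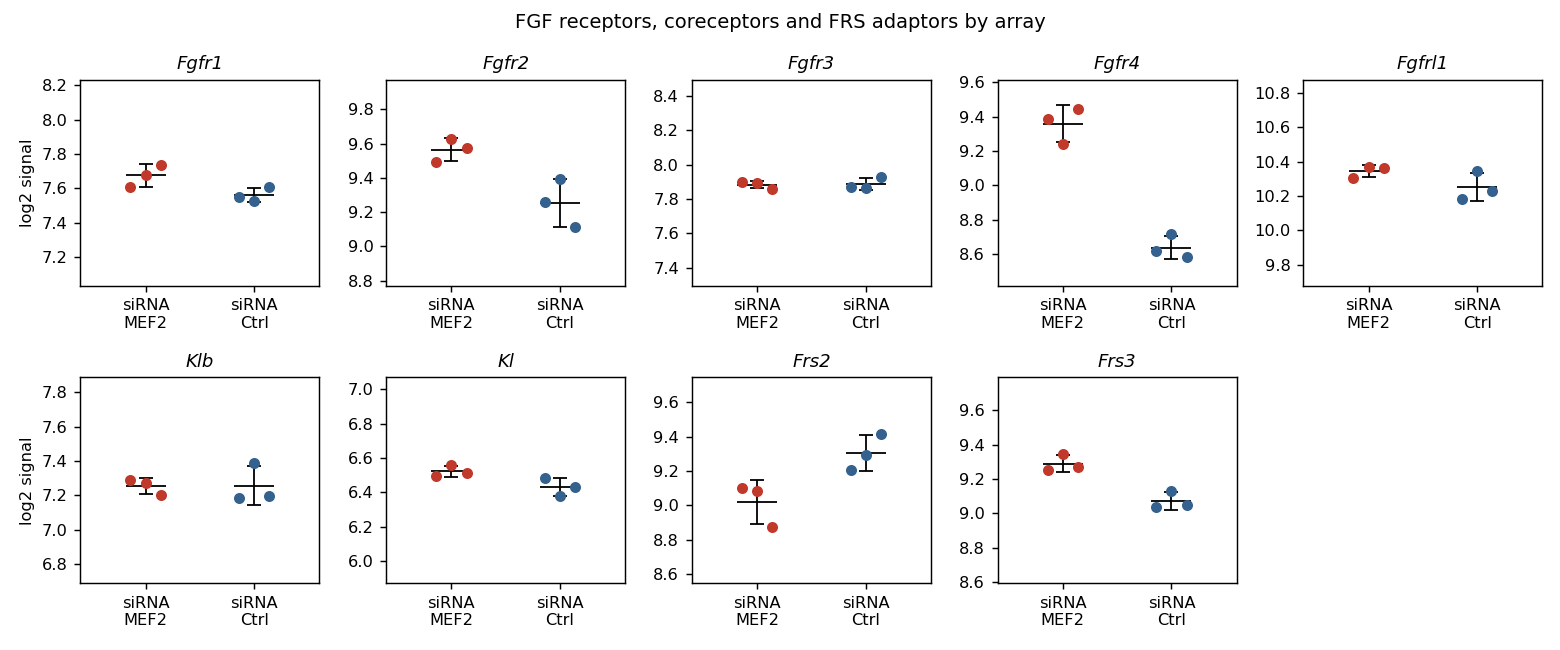
Log2 signal (vertical axis, the same span in every panel) of each of the 9 genes on the 3 siRNA MEF2 arrays (red, left) and the 3 siRNA Ctrl arrays (blue, right); black lines are the mean ± SD. Fgfr4 shows the widest gap, from 9.24 as the lowest siRNA MEF2 value to 8.71 as the highest control value, while Fgfr3, Fgfrl1 and Klb overlap.

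The coreceptors showed small differences. Klb had 7.29, 7.27 and 7.20 in siRNA MEF2, against 7.19, 7.39 and 7.20 in siRNA Ctrl. The highest and the lowest values were both in control arrays. The difference was -0.001 (SE 0.07), and it turned to 0.065 without siRNA Ctrl replicate 2 and to 0.024 without siRNA MEF2 replicate 3. Kl had 6.50, 6.56 and 6.51 in siRNA MEF2, against 6.48, 6.38 and 6.43 in siRNA Ctrl. The gap between the groups was 0.01, and the difference of 0.09 (SE 0.06) lay beside a median of 0.10 for genes of the same band. It turned to -0.005 after quantile normalization and to -0.01 after cyclic loess. Negative controls brighter than the coreceptor made up 51.8% for Klb and 67.4% for Kl, so the arrays did not separate either transcript from the bulk of these controls.

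The adaptors went opposite ways. Frs2, which encodes the broadly expressed FRS2-alpha, had 9.10, 9.08 and 8.88 in siRNA MEF2, against 9.20, 9.30 and 9.42 in siRNA Ctrl. All siRNA MEF2 arrays lay below all control arrays, by 0.10 at the nearest point. The difference was -0.29 (SE 0.08), a 1.22-fold lower signal, with -0.21 after quantile normalization and -0.34 after median centring. Frs3, which encodes FRS2-beta, had 9.25, 9.35 and 9.27 in siRNA MEF2, against 9.04, 9.13 and 9.05 in siRNA Ctrl. All siRNA MEF2 arrays lay above all control arrays, by 0.12 at the nearest point. The difference was 0.22 (SE 0.06), or 1.16-fold, with 0.17 after median centring and 0.30 after quantile normalization. Negative controls brighter than the gene's mean made up 13.4% for Frs2 and 13.2% for Frs3.

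In the fit over all genes, Fgfr4, Fgfr2 and Frs3 were called higher and Frs2 lower, which is 3 and 1 of 9 members beside 9.04% and 11.7% of all genes. The groups did not overlap for 6 of the 9, beside 40.8% of all genes. The siRNA MEF2 arrays were all above the control arrays for 5 members, beside 22.8% of all genes, and all below for 1, beside 18%. A difference above 0 was found for 6 members, beside 60.4% of all genes. These counts come from the contrast on which the members were chosen, and nothing is read from them. They also moved with the setting. Fgfr2 was not called without siRNA MEF2 replicate 2 or without siRNA Ctrl replicate 3. Frs3 was not called after median centring, without siRNA MEF2 replicate 2 or without siRNA Ctrl replicate 1 or 3. Frs2 was not called after quantile normalization or cyclic loess, without siRNA MEF2 replicate 3 or without siRNA Ctrl replicate 2 or 3. The median difference of the members was 0.09, beside 0.04 for all genes.

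**Figure D2:**
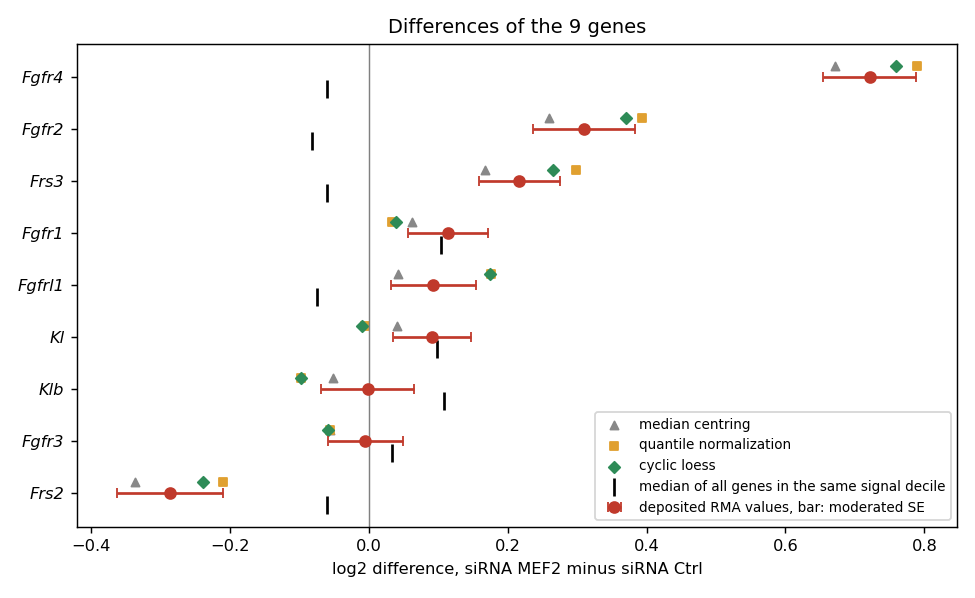
Log2 difference, siRNA MEF2 minus siRNA Ctrl (horizontal axis), for each gene; red points are the deposited values with the moderated SE, smaller symbols the values after 3 rescalings, and black ticks the median of all genes in the same band of signal. Fgfr4 lies at 0.72 and between 0.67 and 0.79 after rescaling, and Frs2 at -0.29 is the member with the lowest value.

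The 250 bases before the RefSeq start (build GRCm38.p6) of both receptor genes called higher and of the adaptor gene called lower are shown because the siRNA targeted a DNA-binding factor. Capitals mark GGGCGG, the GC box read by Sp1-type factors, on either strand, and the sequence runs 5′ to 3′ on the gene's strand.
Fgfr4, chr13:55152568-55152817, plus strand: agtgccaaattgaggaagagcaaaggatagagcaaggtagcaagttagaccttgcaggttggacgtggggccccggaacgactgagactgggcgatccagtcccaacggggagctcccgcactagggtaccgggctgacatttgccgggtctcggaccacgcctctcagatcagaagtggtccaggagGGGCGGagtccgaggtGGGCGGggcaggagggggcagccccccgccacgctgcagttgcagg
Fgfr2, chr7:130266809-130267058, minus strand: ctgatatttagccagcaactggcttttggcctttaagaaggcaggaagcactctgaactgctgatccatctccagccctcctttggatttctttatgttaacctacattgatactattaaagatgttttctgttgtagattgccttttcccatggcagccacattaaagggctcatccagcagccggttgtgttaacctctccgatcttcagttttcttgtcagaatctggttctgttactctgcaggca
Frs2, chr10:117148475-117148724, minus strand: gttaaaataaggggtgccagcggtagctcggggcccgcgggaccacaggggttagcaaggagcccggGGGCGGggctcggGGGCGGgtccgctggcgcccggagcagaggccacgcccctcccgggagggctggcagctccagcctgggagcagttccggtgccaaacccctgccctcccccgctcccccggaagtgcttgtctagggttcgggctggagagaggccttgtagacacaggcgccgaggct

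A RefSeq window of 300 bases around the start was at hand for 8 of the 9 genes, with 9 windows in all. The MEF2 consensus was searched on both strands, and none of the 9 windows held a match, beside 3.19% of 32851 windows of all genes. GGGCGG on either strand was present in 7 of the 9 windows, beside 35.7% of all windows. Adjacent copies of GGGCGG can overlap. The windows of Fgfr2 and Klb were without it and had the lowest G and C contents of the 9, 43.7% and 48.3%, while the others lay between 65.3% and 76.7%. These are matches of letters and not binding sites, and a site outside the window would not be seen.

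The 5 genes whose values over the 6 arrays correlated best with Fgfr4 were Cldn12, Olfr731, Tmem52, Homer1 and Sardh. Pearson's r lay between 0.994 and 0.998. It mostly measures the shared step between the 2 groups, so it describes these arrays and is given without a p. Cldn12, a claudin gene, was 0.58 higher in siRNA MEF2, Sardh, which encodes sarcosine dehydrogenase, 0.44 higher, Tmem52 0.40 higher and Homer1, a scaffold protein gene, 0.35 higher. Olfr731, an olfactory receptor gene, was dim, with means of 5.00 in siRNA MEF2 and 4.82 in siRNA Ctrl. Among the other members, r with Fgfr4 was highest for Frs3 (0.904) and Fgfr2 (0.870) and lowest for Frs2 (-0.875).

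The genes that surround the receptors were counted in 8 lists, with the same fit over all 22084 genes. The lists were set by role, but with earlier results of these data known, so they were not set blind to the data. Heparan sulfate genes changed in both directions. Of 33 measured, 4 rose and 6 fell, so 30.3% were called, beside 20.7% of all genes. The median difference was 0.03, beside 0.04 for all genes. The genes that fell lay in the signal bands 5 to 9, where 3.67% to 26.1% of genes were called lower. Those that rose lay in the bands 4 to 8, where 4.66% to 16.6% were called higher. Sulf2, which encodes an enzyme that removes 6-O-sulfate from heparan sulfate outside the cell, had 9.69, 9.63 and 9.78 in siRNA MEF2, against 9.08, 9.22 and 8.97 in siRNA Ctrl. It rose 1.53-fold (difference 0.61, SE 0.07, limma adjusted p = 0.000231), and the groups did not overlap. Hs6st2, which encodes a 6-O-sulfotransferase that adds the same sulfate, had 7.03, 6.80 and 6.69 in siRNA MEF2, against 7.67, 7.70 and 7.80 in siRNA Ctrl. It fell by 0.88 (SE 0.08, limma adjusted p = 4.8e-05). Its siRNA MEF2 values lay below the medians of the negative controls on those arrays (7.16 to 7.53), so no fold is given. The related genes Hs6st1, Hs6st3 and Sulf1 differed by -0.14, -0.03 and 0.02 on the deposited values. None of them was called (limma adjusted p = 0.13, 0.74 and 0.84).

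Sdc4, a syndecan that carries heparan sulfate chains, had 9.84, 9.91 and 9.54 in siRNA MEF2, against 10.49, 10.52 and 10.35 in siRNA Ctrl. It fell 1.61-fold (difference -0.69, limma adjusted p = 0.0004). The glypican gene Gpc4 fell by 0.28, and Glce, which encodes the epimerase of the chain, fell by 0.30. Hs3st1, a 3-O-sulfotransferase gene, rose by 0.31, a call lost without siRNA MEF2 replicate 1 (adjusted p = 0.0581) and without siRNA Ctrl replicate 3 (adjusted p = 0.0798). Sulf2, Hs6st2, Sdc4, Gpc4 and Glce kept their calls under every alternative in which they were tested, at limma adjusted p up to 0.0498. The dim genes Sdc3 and Gpc2 rose by 0.17 and 0.20, beside band medians of 0.10 and 0.11. Both calls were lost after each of the 3 rescalings (limma adjusted p from 0.106 to 0.307).

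**Figure D3:**
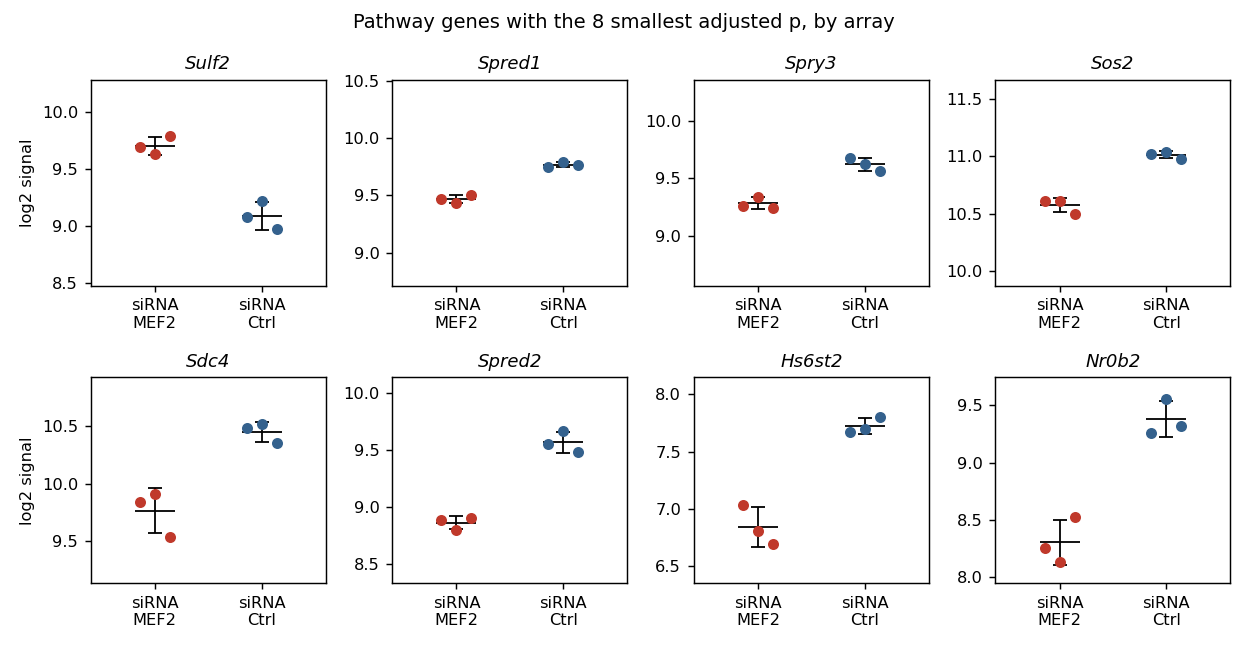
Log2 signal (vertical axis, the same span in every panel) on the 3 siRNA MEF2 arrays (red, left) and the 3 siRNA Ctrl arrays (blue, right) for the 8 pathway genes with the smallest adjusted p; black lines are the mean ± SD. Sulf2 is the one with higher values in siRNA MEF2, and none of the 8 overlaps between groups.

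Of 18 FGF ligand genes, 7 rose and 0 fell by limma, or 10 and 0 at an unadjusted p under 0.05, which is 38.9% called, beside 20.7% of all genes and 9.04% higher. All 18 differences were above 0 on the deposited values, beside 60.4% of all genes. Their median was 0.15, beside 0.04 for all genes, but the ligands lay in the signal bands 2 to 6, whose own medians run between 0.03 and 0.11. In those bands 9.56% to 16.6% of genes were called higher. Most ligands were dim: 3 of the 18 had a mean log2 signal of at least 8. The count of 7 was 2 after median centring or cyclic loess, 3 after quantile normalization and 2 among genes above the median signal. It was also 2 without siRNA MEF2 replicate 2 or siRNA Ctrl replicate 2 and 3 without siRNA Ctrl replicate 1 or 3.

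Fgf18 and Fgf3 were called on the deposited values and after all 3 rescalings. Fgf18 had 8.59, 8.54 and 8.51 in siRNA MEF2, against 8.26, 8.33 and 8.26 in siRNA Ctrl, a rise of 0.26 (limma adjusted p = 0.00814). Fgf3 had 7.19, 7.27 and 7.21 in siRNA MEF2, against 6.95, 6.92 and 6.92 in siRNA Ctrl (difference 0.29, limma adjusted p = 0.00373). Both ligand genes showed no overlap between the groups. Fgf3 was near or below the medians of the negative controls (7.16 to 7.53), which limits what could be measured there.

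Among the endocrine ligands, Fgf15 encodes a ligand of FGFR4 in the mouse liver. Its values were 7.32, 7.36 and 7.29 in siRNA MEF2, against 7.18, 7.14 and 7.11 in siRNA Ctrl. It differed by 0.18 (limma adjusted p = 0.0406), a call lost in 8 of 12 alternatives, with limma adjusted p up to 0.335. Fgf21 differed by 0.16 (adjusted p = 0.0589) and Fgf23 by 0.13 (adjusted p = 0.164, but 0.046 without siRNA MEF2 replicate 3). Genes of the same band as these 3 had a median difference of 0.11. Fgf9 differed by 0.15 (adjusted p = 0.0795), Fgf1 by 0.19 (adjusted p = 0.0322, lost after all 3 rescalings) and Fgf2 by 0.03 (adjusted p = 0.74), which turned to -0.06 after cyclic loess. Fgf22 differed by 0.24, called in 7 of 13 alternatives, and Fgf6 by 0.20, called in 5 of 12. Of the 4 intracellular FGF homologous factor genes, whose products do not act on the receptors, limma called 0, with 1 higher at an unadjusted p under 0.05.

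Of 9 genes for FGF-binding proteins and receptor partners, 1 rose and 1 fell, 22.2% in all, close to the 20.7% of all genes. Flrt2, which encodes a membrane protein known to bind FGF receptors, differed by 0.31 (limma adjusted p = 0.00936) at a signal near 6, a call lost after cyclic loess (0.0524). Nrp1, which encodes neuropilin 1, fell 1.18-fold (limma adjusted p = 0.0163), a call lost after quantile normalization and cyclic loess (0.0894 and 0.088) and without siRNA Ctrl replicate 1 or 2 (0.0517 and 0.0651). The 2 calls became 4 without siRNA MEF2 replicate 3, 1 without siRNA Ctrl replicate 1 or 2, and 0 after cyclic loess.

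The signal transduction genes below the receptor were all bright, and 3 of 25 rose and 6 fell, 36% in all, beside 20.7% of all genes. In the signal bands 7 to 10, where these genes lay, 22.7% to 26.1% of genes were called lower and 4.3% to 7.43% higher. The genes for the 2 proteins that bind FRS2 directly showed small differences. Grb2 differed by -0.07 (limma adjusted p = 0.361) and Ptpn11, the SHP2 gene, by -0.07 (adjusted p = 0.391), which turned to 0.03 after quantile normalization. Sos2, which encodes an exchange factor that loads RAS with GTP, had 10.61, 10.61 and 10.50 in siRNA MEF2, against 11.02, 11.04 and 10.98 in siRNA Ctrl. It fell 1.36-fold (limma adjusted p = 0.000446), without overlap. The kinase genes Map2k1 and Mapk3, for MEK1 and ERK1, fell 1.28-fold and 1.25-fold (limma adjusted p = 0.00431 and 0.00402), and Cbl, a ubiquitin ligase gene that promotes receptor breakdown, fell 1.26-fold. The calls of Sos2, Map2k1, Mapk3 and Cbl held after all 3 rescalings. Shc1, an adaptor gene, rose 1.18-fold, Crk 1.21-fold and Braf, a RAF kinase gene, 1.19-fold, with limma adjusted p from 0.0156 to 0.0202. Each of these 3 calls was lost without siRNA Ctrl replicate 1 (adjusted p from 0.0595 to 0.0699). Shc1 was also not called without siRNA Ctrl replicate 2 (0.0543) and Crk without siRNA MEF2 replicate 2 (0.075). Braf was also not called after median centring (0.0576), without siRNA MEF2 replicate 3 (0.0548) or without siRNA Ctrl replicate 2 (0.0726). Gab1 differed by 0.02 (adjusted p = 0.805) and Plcg1, a phospholipase gene, by -0.02 (adjusted p = 0.855), and both signs turned under some alternatives. Without siRNA Ctrl replicate 1 or 2 the count of 9 fell to 5.

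Of 15 genes that feed back on the pathway or respond to it, 4 fell and 2 rose, 40% in all, beside 20.7% of all genes. The called genes lay in the signal bands 6 to 8, where 13% to 26.1% of genes were called lower and 4.66% to 13.1% higher. Spred2, an inhibitor of RAS to RAF signalling, had 8.88, 8.80 and 8.91 in siRNA MEF2, against 9.55, 9.66 and 9.48 in siRNA Ctrl. It fell 1.63-fold (difference -0.70, SE 0.06, limma adjusted p = 4.42e-05), with no overlap and with its call in all 13 alternatives. Spred1, its relative, fell 1.23-fold, and Spry3, a Sprouty gene, fell 1.27-fold (limma adjusted p = 0.00301 and 0.00223). Dusp4, a MAP kinase phosphatase gene, fell by 0.30, a call lost in 3 of 13 alternatives, among them the fit without siRNA Ctrl replicate 2 (adjusted p = 0.107).

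Dusp6, Etv4, Etv5 and Spry4, other genes of the feedback and target list, did not pass the test. Dusp6 had 6.90, 6.81 and 6.81 in siRNA MEF2, against 6.71, 6.66 and 6.78 in siRNA Ctrl (limma adjusted p = 0.143). Etv4 differed by 0.10 (adjusted p = 0.324), Etv5 by -0.24 (adjusted p = 0.132) and Spry4 by 0.07 (adjusted p = 0.425). These 4 were all near or below the median of the negative controls, which limits what could be measured there. Etv5 passed without siRNA Ctrl replicate 1 (adjusted p = 0.0355). Spry2, a Sprouty gene, had 8.87, 8.42 and 8.42 in siRNA MEF2, against 8.69, 8.73 and 8.69 in siRNA Ctrl. Its difference of -0.13 (adjusted p = 0.358) became -0.28 without siRNA MEF2 replicate 1 (adjusted p = 0.00829). Egr1, an immediate early gene, was likewise uneven, with 8.84, 8.10 and 8.07 in siRNA MEF2, against 7.83, 7.80 and 7.70 in siRNA Ctrl. It rose by 0.56 (limma adjusted p = 0.026), a call lost in 6 of 13 alternatives, with adjusted p up to 0.118. Without siRNA MEF2 replicate 1 its difference was 0.31 (adjusted p = 0.0083). Dusp5, another phosphatase gene, rose by 0.26 (limma adjusted p = 0.0161), a call lost without siRNA MEF2 replicate 2 (0.0582) and siRNA Ctrl replicate 1 (0.064).

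Of the 9 genes of the liver axis from FGF15 to FGFR4 and bile acid synthesis, 2 fell and 1 rose, 33.3% in all, beside 20.7% of all genes. Nr0b2, which encodes the nuclear receptor SHP, had 8.25, 8.13 and 8.52 in siRNA MEF2, against 9.26, 9.55 and 9.31 in siRNA Ctrl. It fell 2.11-fold (difference -1.08, SE 0.10, limma adjusted p = 5.02e-05). Nr1h4, which encodes the bile acid receptor FXR, had 7.42, 7.30 and 7.34 in siRNA MEF2, against 7.64, 7.83 and 7.62 in siRNA Ctrl (difference -0.34, limma adjusted p = 0.00497). Cyp8b1, a bile acid enzyme gene of the liver, had means of 7.29 in siRNA MEF2 and 7.00 in siRNA Ctrl (difference 0.29, limma adjusted p = 0.00569). All 3 kept their calls after the 3 rescalings, and the groups did not overlap. Nr0b2 lay in the signal band 7 and Nr1h4 in band 5, where 22.9% and 3.67% of genes were called lower. Cyp8b1 lay in band 4, where 15.3% were called higher. Nr1h4 in siRNA MEF2 and Cyp8b1 in both groups were near or below the medians of the negative controls (7.16 to 7.53). That limits what could be measured for these genes. The count was 5 without siRNA MEF2 replicate 3.

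**Figure D4:**
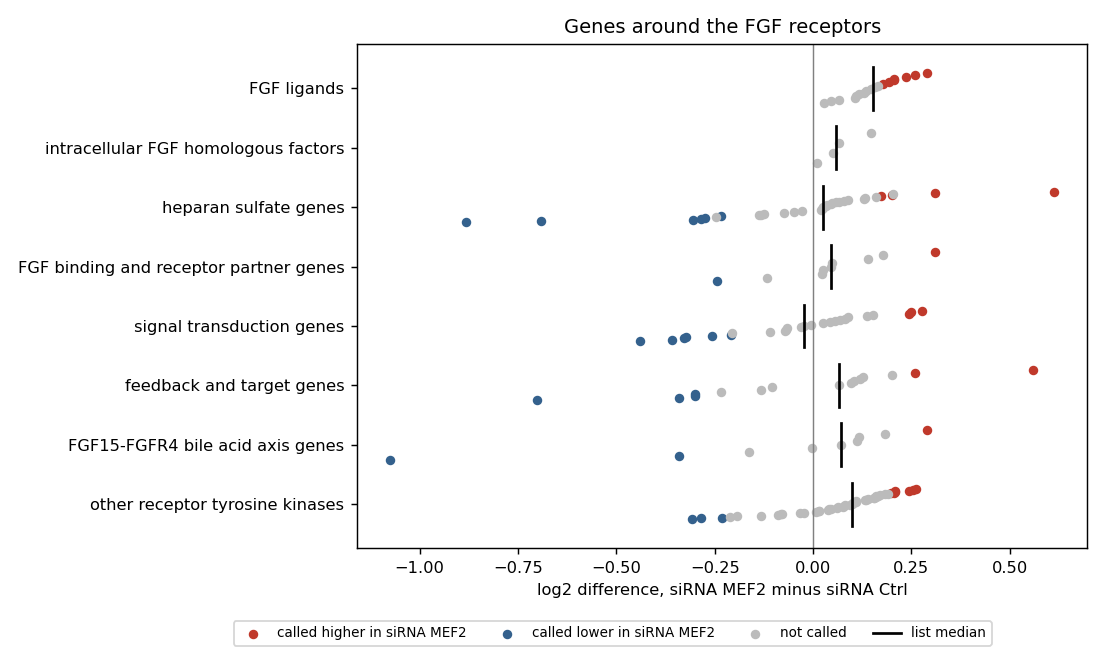
Log2 difference, siRNA MEF2 minus siRNA Ctrl (horizontal axis), of every measured gene in the 8 lists (rows); red points were called higher, blue points lower and grey points not called, and black bars are list medians. The ligands all lie above 0 with a median of 0.15, while the heparan sulfate genes run from -0.88 to 0.61.

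Other receptor tyrosine kinases were set beside the FGF receptors. Of 47 measured, 7 rose and 3 fell, 21.3% in all, beside 20.7% of all genes. Their differences lay between -0.31 and 0.26 on the deposited values. Epha2 had 9.07, 8.94 and 8.88 in siRNA MEF2, against 9.27, 9.32 and 9.23 in siRNA Ctrl, and fell 1.24-fold (limma adjusted p = 0.00599). Ror1 fell 1.22-fold (adjusted p = 0.00981), a call lost after quantile normalization (adjusted p = 0.0849). Met, the receptor for hepatocyte growth factor, differed by -0.23 at a mean of 6.45 in siRNA MEF2 and 6.68 in siRNA Ctrl. Both means lay below the medians of the negative controls (7.16 to 7.53), which limits what could be measured there. The call of Met (limma adjusted p = 0.0242) was lost in 3 of 12 alternatives, with adjusted p up to 0.106. Pdgfra, Ror2, Ptk7 and Ephb2 differed by 0.21 to 0.26, and each of these calls was lost after all 3 rescalings. The count of 10 was 5 after median centring or cyclic loess, 4 after quantile normalization and 5 among genes above the median signal. It was 3 without siRNA MEF2 replicate 2 or siRNA Ctrl replicate 2, 5 without siRNA Ctrl replicate 3 and 6 without siRNA Ctrl replicate 1.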

How the data were processed

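Expression was measured in 6 samples, 3 siRNA MEF2 and 3 siRNA Ctrl, grouped and numbered by their titles. The authors deposited a log2 signal for each probe set on each array, summarised by RMA at the gene level per the file headers. RMA and Partek are named without versions in the submitters' processing notes, and the array design is not given in the sources used here. Both deposited tables held the same values (largest difference 0.0 over 35557 probe sets). The precision is limited by the number of arrays. RMA brings arrays to a common scale, so a change common to most transcripts would not show.

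Probe sets were named from the deposited symbols and accessions through a RefSeq table of GRCm38.p6, used for names and gene order only, since the deposited annotation quotes another build. Of 25522 named probe sets, the one with the highest mean stood for each of 22084 genes. No filter on low signal was applied. Differences, siRNA MEF2 minus siRNA Ctrl, came from limma 3.58.1 (R 4.3.3; lmFit, then eBayes) with the 2 groups as the only terms. Tests were two-sided, and p-values were adjusted by Benjamini-Hochberg over all 22084 genes. A gene was called, and is said to have risen or fallen, at an adjusted p under 0.05. SE is the moderated standard error. A fold is given where both group means were at least 8. Signal bands are 10 groups of genes of equal size by mean signal. Insl3, a Leydig marker, is not analysed here. The script was tested on simulated data with known changes.

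The members and lists were chosen with earlier results of these data known. The rule for named genes was: all 9 members, Mef2a and Mef2d, up to 4 called genes in each direction from each list by smallest p, a fixed set of ligands, adaptors and feedback genes, and the 5 genes most like Fgfr4. Hs6st1, Hs6st3 and Sulf1 were named outside this rule, beside Hs6st2 and Sulf2, and are not in the counts over named genes. Alternatives were 3 rescalings, genes above the median signal, the mean over probe sets, a variance trend with robust estimation, the replicate number as a block, and leaving out each array. Same-numbered arrays of the 2 groups deviated together only weakly (r of 0.113, 0.076 and 0.096 across genes), though more than arrays of unlike number (r at most -0.005). The labels state no pairing, so the numbers were not taken to pair the samples in the main fit.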

Additional observations from a re-analysis of the deposited data

How the results depend on the processing

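The Fgfr4 difference was between 0.67 and 0.79 in the 13 alternatives. The gene filter, the mean over probe sets, the variance trend and the replicate block cannot change it. Only the rescalings and leaving out an array could move it. The number of members with a difference above 0 was 6 on the deposited values and between 5 and 8 in the alternatives. Counts of called genes moved more. FGF ligands, 7 called, gave 2 after median centring, 3 after quantile normalization, 2 after cyclic loess, 2 among genes above the median signal, and 2 to 7 without 1 array. Other receptor tyrosine kinases, 10 called, gave 5, 4, 5 and 5 under the same 4 settings, and 3 to 11 without 1 array. FGF binding and partner genes, 2 called, gave 1 after quantile normalization, 0 after cyclic loess, 1 among genes above the median signal, and 1 to 4 without 1 array. Without 1 array, the signal transduction genes gave 5 to 9, the bile acid axis genes 3 to 5, and all genes 2482 to 4287. The cause of these moves was not tested, and some of these fits hold fewer arrays or genes. Signs turned for genes that were not called: Fgf2 (-0.021 after median centring, -0.059 after quantile normalization, -0.060 after cyclic loess), Ptpn11 (0.027 and 0.016 after quantile normalization and cyclic loess), Plcg1 (0.071 and 0.046 under the same, -0.075 to 0.075 without 1 array), Spry4 (-0.031 and -0.037 under the same) and Gab1 (-0.026 after median centring, -0.022 to 0.062 without 1 array). With the replicate number as a block 5321 genes were called, against 4577 without it. With 3 arrays per group the block cannot change a difference, so that of Fgfr4 is 0.72 in both fits. Every array correlated best with its own number in the other group, a hint from the data and not from the design. With the block the call of Sdc3 was lost (adjusted p = 0.0518), and no other named call was. Over all named genes outside the 9 members, 563 results kept their direction and side of the threshold, 101 lost the call, 3 gained it and 13 turned sign. Signal near that of the negative controls limits Fgfr1, Fgfr3, Klb, Kl and most ligands.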

Other observations

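The genes next to Fgfr4 by RefSeq order were measured as well, chosen by position and not by value. Uimc1 and Zfp346 lie before it and Nsd1 and Rab24 after it. Their differences were -0.06, 0.04, 0.04 and -0.07 on the log2 scale (limma adjusted p from 0.423 to 0.684), and the siRNA MEF2 and siRNA Ctrl arrays overlapped for each of the 4.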
